A study of Caenorhabditis elegans with 2 samples.

Results

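The genes described here are 9 cytosolic heat shock genes of *Caenorhabditis elegans*, of 19973 protein-coding genes in the WBcel235 annotation of Ensembl. They were taken by name: the transcription factor gene *hsf-1*, the HSP70 genes *hsp-1*, *F44E5.4*, *F44E5.5* and *hsp-70*, the HSP110 gene *hsp-110*, the J-domain cochaperone gene *dnj-13* and the small heat shock protein genes *hsp-16.2* and *hsp-16.41*. For each gene, peaks of the bZIP factor ATF-7 were collected from 2 kb upstream of the 5′ end to the gene end.

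The study mapped where ATF-7 binds by ChIP-seq. The animals were young adults, used whole, of the strain OP638 with the genotype unc-119(tm4063) III; wgIs638, whose stable transgene expresses ATF-7 with GFP and FLAG at its C-terminal end. There was 1 group with 2 biological replicates, numbered 2 and 3, taken from separate biosamples of 1 transgenic line, of pooled males and females grown from L1 larvae starved after bleaching. The labels describe an anti-GFP immunoprecipitation of sonicated chromatin, although the antibody field names atf-7 itself. The labels give no heat shock or other treatment, and no second condition was analysed here, so each value describes these cultures without a test between conditions. Whole animals were used, so fewer cells with ATF-7 at a site and less ATF-7 in each cell cannot be told apart.

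HSF-1 is the factor that switches on chaperone genes when proteins unfold, and it binds heat shock elements, which are runs of the unit GAA and its reverse TTC in alternating direction. HSP70 proteins bind and release unfolded chains in a cycle of ATP hydrolysis, J-domain proteins start that cycle, HSP110 proteins exchange its nucleotide, and small heat shock proteins hold unfolded chains without ATP. ATF-7 belongs to the CREB and ATF family, which binds the cAMP response element (CRE) TGACGTCA, and in *C. elegans* it is best known for acting downstream of PMK-1, a p38 kinase, in immune responses. The questions asked of these genes were at which of them ATF-7 peaks lie, how alike the replicates are there, and which motifs the peaks hold.

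The promoter sequences that carry the results are printed 5′ to 3′ on the strand given, from the RefSeq genome of build WBcel235, which is ce11. The first 4 are the 201 bases centred on the summit of the strong peak in each promoter, and capitals mark the GAA and TTC units that stand in pairs as TTCNNGAA or GAANNTTC. They lie at II:11759382-11759582 on the plus strand between *F44E5.4* and *F44E5.5*, at IV:17278463-17278663 on the plus strand before *hsp-1*, at II:11545370-11545570 on the plus strand before *dnj-13*, and at III:8447042-8447242 on the minus strand before *hsp-110*. The last, for contrast, is the whole 220 bases between *hsp-16.2* and *hsp-16.41*, at V:1804958-1805177 on the plus strand, where no summit of any list lies.
F44E5.4 and F44E5.5: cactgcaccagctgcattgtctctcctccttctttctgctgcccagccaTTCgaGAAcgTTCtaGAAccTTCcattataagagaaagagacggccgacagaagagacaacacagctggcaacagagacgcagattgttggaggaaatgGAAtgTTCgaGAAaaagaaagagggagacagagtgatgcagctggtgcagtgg
hsp-1: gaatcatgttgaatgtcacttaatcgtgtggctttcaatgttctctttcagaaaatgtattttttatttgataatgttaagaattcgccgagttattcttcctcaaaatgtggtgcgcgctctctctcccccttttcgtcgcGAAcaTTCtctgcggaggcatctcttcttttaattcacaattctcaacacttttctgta
dnj-13: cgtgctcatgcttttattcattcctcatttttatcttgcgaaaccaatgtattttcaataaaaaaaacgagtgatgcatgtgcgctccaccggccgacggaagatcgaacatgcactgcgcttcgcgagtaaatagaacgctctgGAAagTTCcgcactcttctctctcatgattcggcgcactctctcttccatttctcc
hsp-110: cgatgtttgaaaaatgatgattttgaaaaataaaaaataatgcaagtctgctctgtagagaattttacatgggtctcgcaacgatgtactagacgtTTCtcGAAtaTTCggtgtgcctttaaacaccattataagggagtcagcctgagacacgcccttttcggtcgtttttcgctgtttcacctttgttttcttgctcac
hsp-16.2 and hsp-16.41: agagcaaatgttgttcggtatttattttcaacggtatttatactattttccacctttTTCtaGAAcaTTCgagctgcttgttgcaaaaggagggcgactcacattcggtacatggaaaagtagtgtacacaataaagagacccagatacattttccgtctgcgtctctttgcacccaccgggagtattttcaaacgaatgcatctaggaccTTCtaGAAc

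The authors' list of peaks that passed an irreproducible discovery rate (IDR) threshold held 2247 peaks, and their relaxed lists, made as input for that step, held 30000 peaks for the pooled reads, 28126 for replicate 2 and 30000 for replicate 3. The signal printed for a peak is the authors' value for it, and its scale differs between lists, so peaks are compared within a list by signal or by rank from the top. The IDR peaks were the 2247 strongest pooled peaks, with signals between 104.608 and 1586 and a median of 149. The median over the relaxed lists was 39.1 for the pooled reads, 20.3 for replicate 2 and 26.2 for replicate 3. By their names the relaxed lists hold background as well as peaks. Their −log10 q, larger where a peak is more significant, went down to 0.0582 in the pooled list, against 3.72 in every IDR peak. The 2247th strongest peak had a signal of 43.7 in replicate 2 and of 68.0 in replicate 3. Of the IDR peaks, 1386 (61.7%) had a summit within 100 bp among the 2247 strongest of both replicates, 522 (23.2%) of replicate 3 only and 256 (11.4%) of replicate 2 only. Reads per library are not given in the files, so the depth behind these values is unknown.

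An IDR summit lay in the window of 5 of the 9 heat shock genes, *F44E5.4*, *F44E5.5*, *hsp-1*, *dnj-13* and *hsp-110*, against 10.4% of all protein-coding genes. All 5 were HSP70 or HSP110 genes or the J-domain partner, while *hsf-1*, *hsp-70*, *hsp-16.2* and *hsp-16.41* had none. For the same 5 genes an IDR summit was matched within 100 bp among the 2247 strongest peaks of both replicates, against 6.84% of all protein-coding genes. A relaxed summit of the pooled reads and of each replicate lay in the window of all 9, against 49.2% of all protein-coding genes. Such an entry, which may be background, was thus common somewhere in the window. When each replicate had to have a summit within 100 bp of the pooled one, 7 of the 9 remained, against 33.7% of all protein-coding genes. The 2 that dropped out were *hsf-1* and *hsp-16.2*. *hsp-16.41* remained only through a pooled summit 901 bp upstream, matched at rank 25008 in replicate 2 and 24365 in replicate 3. The windows had a median length of 4200 bp, between 2624 and 11579 bp, against a median of 4027 bp over all protein-coding genes. *F44E5.4* and *F44E5.5* share 1 peak, so these 5 genes stand for 4 promoters.

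**Figure D1:**
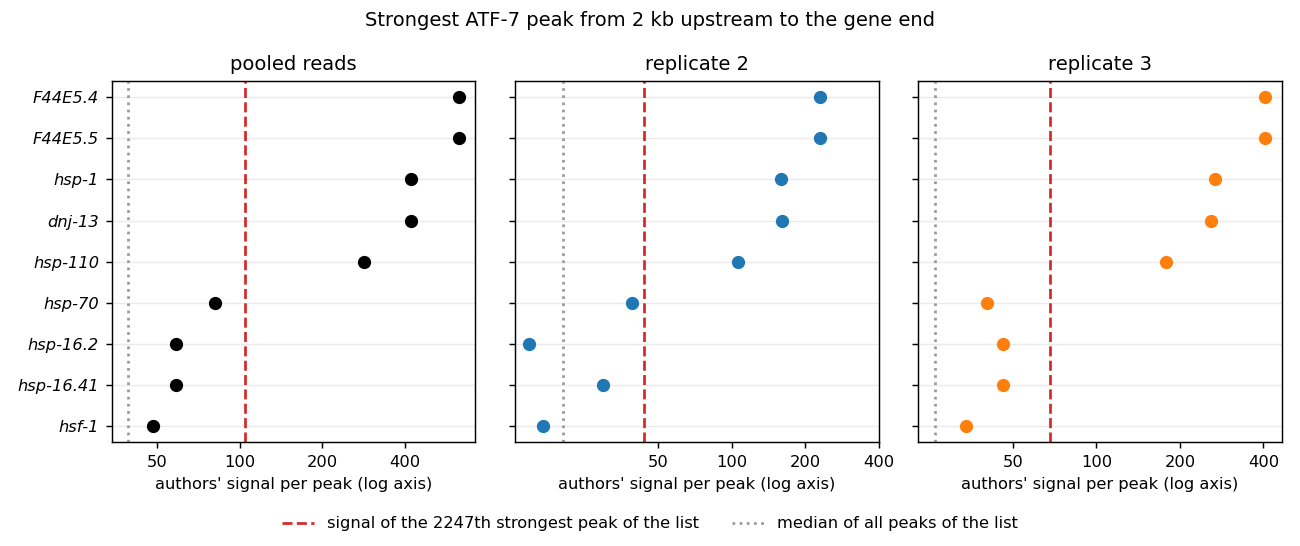
Signal of the strongest peak from 2 kb upstream to the end of each heat shock gene (points, log axes), in the relaxed lists of the pooled reads, replicate 2 and replicate 3. F44E5.4, F44E5.5, hsp-1, dnj-13 and hsp-110 lie above the signal of the 2247th strongest peak (dashed) in all 3 lists, and the other 4 genes lie below it in all 3, with the median of all peaks dotted.

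The 5 genes lay high among the genes with IDR peaks. Their strongest IDR signal had a median of 424 (n = 5), against 153 over all 2080 genes with an IDR summit. By that signal *F44E5.4* and *F44E5.5* tied at rank 33 of 2080, the top 1.59%. *hsp-1* had rank 108, *dnj-13* rank 111 and *hsp-110* rank 261, which is the top 12.5%. The order of the 4 promoters was the same in the pooled reads and in replicate 3, and in replicate 2 the nearly equal *hsp-1* and *dnj-13* changed places.

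*F44E5.4* and *F44E5.5* encode HSP70 proteins and are transcribed away from each other from a gap of 350 bp. *F44E5.4* (WBGene00009691) lies at II:11757107-11759311 on the minus strand and *F44E5.5* (WBGene00009692) at II:11759662-11761861 on the plus strand. They had a single peak in every list, at II:11759306-11759649, and its summit at 11759482 stood 171 bp upstream of *F44E5.4* and 180 bp upstream of *F44E5.5*. Its pooled signal was 632 (rank 27 of 30000), with 230 in replicate 2 (rank 34 of 28126) and 406 in replicate 3 (rank 27 of 30000). The replicate summits stood 13 bp from the pooled summit in replicate 2 and at the same base in replicate 3. It was the strongest peak of the 9 genes in all 3 lists, and no other summit of any list fell in either window.

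The gene pair is a near-identical inverted copy, which limits what can be read from the gene bodies. *F44E5.4* aligned to the *F44E5.5* locus with 99.9% identity over 2205 bp, and 98.2% of the 36-base stretches of *F44E5.4* occur elsewhere in the genome. For *F44E5.5* that share was 97.9%, and with 50-base stretches the shares were 98.1% for *F44E5.4* and 97.9% for *F44E5.5*. Reads from either body could thus come from both, or be dropped, and how the authors treated such reads is not given in the sources used here. The 201 bases at the summit hold no 36-base stretch found elsewhere. Over the whole peak 11.7% of the 36-base stretches and 0.339% of the 50-base stretches were repeated. The peak between the genes is therefore read from sequence of its own, but it cannot be assigned to one of the 2 genes.

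*hsp-1* (WBGene00002005, IV:17278959-17281330, plus strand) encodes the constitutive cytosolic HSC70. Its main peak, IV:17278338-17278750, had its summit 396 bp upstream in the intergenic region. The signal was 424 in the pooled reads (rank 94), 160 in replicate 2 (rank 102) and 267 in replicate 3 (rank 98). The summits agreed within 1 bp for replicate 2 and 10 bp for replicate 3, and the ranks were close in all 3 lists. The annotated non-coding RNA *F26D10.23* lies in the same peak, 61 bp from the summit.

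A second IDR peak of *hsp-1*, IV:17280100-17280536, had its summit in a coding exon 1272 bp into the gene, 62 bp from the snoRNA gene *F26D10.24*. The replicates differed there. Its signal was 126 in the pooled reads (rank 1559) and 98.5 in replicate 3 (rank 1079), while in replicate 2 the nearest summit, 54 bp away, had a signal of 20.7 and rank 13518, close to the median of that list. The 201 bases at the summit aligned to the pseudogene WBGene00002006 at X:3294211-3294411 with 93.0% identity, and 1.81% of their 36-base stretches but none of the 50-base stretches occur elsewhere. Whether reads shared with the pseudogene contributed was not tested.

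*dnj-13* (WBGene00001031, II:11545701-11547360, plus strand) encodes a type II J-domain protein that works with HSP70 and HSP110 in dissolving aggregates. Its peak, II:11545344-11545615, had its summit 231 bp upstream. The signal was 423 in the pooled reads (rank 96), 161 in replicate 2 (rank 101) and 260 in replicate 3 (rank 106), and the replicate summits stood 9 and 13 bp away. These ranks lie next to those of *hsp-1* in each list. The position has several annotations at once: *dnj-13* lies within *dhgd-1*, so the summit is in an intron of that gene, it falls in the non-coding RNA *F54D5.22*, annotated on both strands, and it stands 642 bp upstream of the divergent gene *F54D5.9*. The peak cannot be assigned to one of these genes from its position.

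*hsp-110* (WBGene00016250, III:8443910-8446909, minus strand) encodes the HSP110 nucleotide exchange factor of HSP70. Its promoter peak, III:8447041-8447253, had its summit 233 bp upstream, in the gap of 443 bp before the divergent gene *rpn-3*, which encodes a proteasome subunit and whose 5′ end stood 211 bp from the summit. The signal was 284 in the pooled reads (rank 245), 107 in replicate 2 (rank 274) and 179 in replicate 3 (rank 263). The replicate summits stood 17 and 4 bp from the pooled summit. The annotated non-coding RNA *C30C11.14* lies in the peak, 47 bp from the summit. Position alone does not assign this peak to *hsp-110* rather than *rpn-3*.

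The second IDR peak of *hsp-110*, III:8443925-8444035, had its summit in the 3′ UTR, 402 bp upstream of the next gene, *ufbp-1*. It stood just inside the IDR list, with a pooled signal of 105.494 (rank 2210) where the lowest of the list was 104.608. Its signal was 78.2 in replicate 3 (rank 1727) and 24.4 in replicate 2 (rank 9312). Both IDR peaks inside gene bodies were thus among the 2247 strongest of replicate 3 and not of replicate 2, while the 4 promoter peaks were among the strongest of both. Within the gene body the replicates also differed in rank at other stronger summits. A pooled summit 751 bp into the gene had a signal of 58.0 in replicate 2 (rank 1179). The nearest replicate 3 summit, 119 bp from it, had 33.4 (rank 9234). A pooled summit 1493 bp into the gene had 79.2 in replicate 3 (rank 1684) and no replicate 2 summit within 100 bp. A weaker pooled summit 2123 bp into the gene had replicate summits 53 and 10 bp away.

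**Figure D2:**
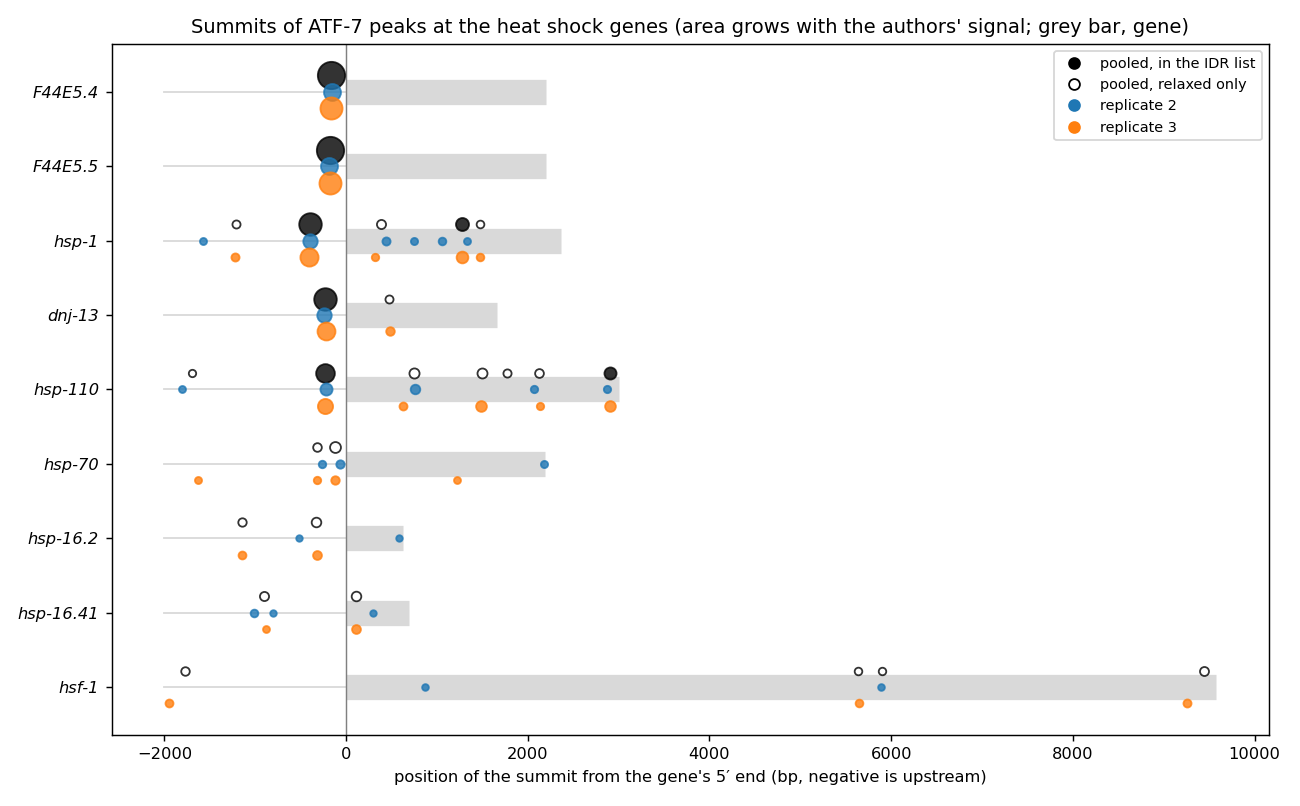
Position of every summit from 2 kb upstream (0 is the 5′ end, grey bars are the genes) to the end of the 9 heat shock genes, for the pooled reads (black, filled where in the IDR list), replicate 2 (blue) and replicate 3 (orange), with the area growing with the signal in each list. The 4 promoter peaks, which serve 5 genes, have pooled summits between 171 and 396 bp upstream with large replicate summits within 17 bp, and the summits of the other 4 genes are small, with both pooled summits of hsp-70 matched within 53 bp by each replicate.

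Over the 9 windows there were 24 distinct pooled summits, of which 6 were IDR peaks. The 18 relaxed summits had signals between 24.7 and 81.2 with a median of 42.0, near the 39.1 of the whole pooled list. Both replicates had a summit within 100 bp at 5 of the 18, and neither had one at 4 of them. Over the whole pooled list, which includes the IDR peaks while the 18 do not, 9784 of 30000 summits (32.6%) had both.

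*hsp-70* (WBGene00002026, I:9320325-9322519, minus strand) encodes a heat-inducible HSP70 and lies inside the oppositely transcribed gene *uggt-2*. It had the strongest of the relaxed peaks, with a summit 121 bp upstream in an intron of *uggt-2*. The signal was 81.2 in the pooled reads (rank 3594), 39.1 in replicate 2 (rank 2921, 52 bp away) and 40.2 in replicate 3 (rank 6333, at the same base). All 3 lay above the median and below the 2247th strongest peak of their lists. A weaker pooled summit 322 bp upstream had a signal of 42.8 (rank 12696), and the nearest IDR summit stood 14809 bp from the 5′ end. *F44E5.4* aligned to *hsp-70* with 77.8% identity over 1184 bp, but no 36-base stretch of the *hsp-70* gene or of its promoter peak occurs elsewhere.

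*hsp-16.2* (WBGene00002016, V:1804334-1804957, minus strand) and *hsp-16.41* (WBGene00002018, V:1805178-1805875, plus strand) encode small heat shock proteins that are widely used as reporters of the heat shock response. They are transcribed away from each other, as *F44E5.4* and *F44E5.5* are, from a gap of 220 bp. No summit of any list lay in that gap, although the relaxed pooled peak V:1805074-1805509 reached into it. The nearest pooled summit, at 1805292, stood 114 bp into a coding exon of *hsp-16.41* and 335 bp upstream of *hsp-16.2*. Its signal was 58.2 in the pooled reads (rank 6973) and 46.2 in replicate 3 (rank 4805). The nearest replicate 2 summit, 178 bp away, had a signal of 14.5 (rank 26093). The −log10 q was 1.00 in the pooled reads, 1.79 in replicate 3 and 0.0339 at that replicate 2 summit. A pooled summit 901 bp upstream of *hsp-16.41* had a signal of 49.9 (rank 9489), where the summits within 100 bp had 14.9 in replicate 2 (rank 25008) and 19.4 in replicate 3 (rank 24365). The strongest replicate 2 summit near the pair, 1011 bp upstream of *hsp-16.41*, had a signal of 29.7 (rank 5751). Its peak, V:1803947-1804386, overlapped that of the pooled summit 901 bp upstream, V:1804059-1804494, but its summit stood just outside the 100 bp limit. The replicates therefore differed at this pair in rank and in the place of their strongest summits. The nearest IDR summit stood 61317 bp from the 5′ end of *hsp-16.2*.

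Both small heat shock protein genes have relatives elsewhere on chromosome V. *hsp-16.2* aligned to *hsp-16.1* with 87.0% identity over 554 bp and *hsp-16.41* to *hsp-16.48* with 85.5% over 608 bp. Of their 36-base stretches 1.36% (*hsp-16.2*) and 0.905% (*hsp-16.41*) occur elsewhere, and of the 50-base stretches none. In the 201 bases at the pooled summit in *hsp-16.41* the shares were 1.81% and 0%.

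*hsf-1* (WBGene00002004, I:11953507-11963085, minus strand) encodes the heat shock factor itself and is the longest of the 9, with 9579 bp. Its strongest pooled summit lay in its 3′ UTR, 9446 bp into the gene, with a signal of 48.0 (rank 10202) and no replicate summit within 100 bp. The other 3 pooled summits had signals between 26.8 and 41.3. Of these the nearest to the 5′ end of the gene stood 1777 bp upstream without a replicate summit within 100 bp. The annotated transcripts of *hsf-1* have 2 different 5′ ends. A replicate 2 summit 868 bp into the gene, 233 bp from the nearer of them, had a signal of 16.7 (rank 20512). The −log10 q of the 4 pooled summits lay between 0.0806 and 0.551, so all may be background. The strongest summit anywhere in the window was 16.9 in replicate 2 (rank 20197) and 34.0 in replicate 3 (rank 8902). The nearest IDR summit was 515 bp past the gene end, in the 3′ UTR of *R06C1.6*, with a signal of 115. At *hsf-1* the values were thus spread over the long window, and no position was shared by all 3 lists. Of its 36-base stretches 2.95% occur elsewhere in the genome, while at *hsp-110* and *dnj-13* none do.

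The motifs were read in the 201 bases centred on each summit, on both strands, and set beside the 2247 IDR peaks and the promoters of all protein-coding genes, taken from 300 to 100 bp upstream of each 5′ end. None of the 6 IDR peaks held the full CRE TGACGTCA, against 9.79% of all IDR peaks and 1.26% of promoters. The CRE core TGACG was in 1 of the 6, the 3′ UTR peak of *hsp-110*, 29 bp from the summit, against 40.4% of IDR peaks and 20.0% of promoters. None of the 4 promoter peaks held it. The E-box CACGTG was in none of the 6, against 11.8% of IDR peaks.

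Heat shock element pairs were in all 4 promoter peaks and in neither of the gene body peaks. The pair GAANNTTC was in 4 of the 6, against 9.84% of IDR peaks and 13.2% of promoters. The pair TTCNNGAA was in 2 of the 6, those of *F44E5.4*/*F44E5.5* and of *hsp-110*, against 9.17% of IDR peaks and 12.7% of promoters. Each pair motif is its own reverse complement, and the 2 overlap in a longer run. Runs of 3 alternating units, the usual minimum of a heat shock element, were in the same 2 peaks, against 1.69% of IDR peaks and 1.31% of promoters. Among the 38 IDR peaks with such a run, which had a median signal of 161, the *F44E5.4*/*F44E5.5* peak was the strongest and the *hsp-110* peak ranked 9. Heat shock genes are known targets of HSF-1, and a match is a description, not a site shown to be bound.

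The position of the elements differed between the promoters, as the capitals in the sequences above show. In the *hsp-110* window the run of 3 units was centred 2 bp from the summit. In the *F44E5.4*/*F44E5.5* window 4 overlapping matches of 3 units formed 2 separate sites, the one with matches centred 35 to 45 bp to the left of the summit and the other with a match centred 54 bp to the right, so that the summit stood between them. The whole peak there held 10 such matches at 4 sites. In the *hsp-1* window the single pair lay 45.5 bp and in the *dnj-13* window 48.5 bp from the summit, each on its gene's side of it.

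Elements were also present where ATF-7 peaks were weak or absent. The gap between *hsp-16.2* and *hsp-16.41*, with no summit, held 2 pairs TTCNNGAA, 1 pair GAANNTTC and 1 run of 3 units. The pair at its right edge is cut off from a further run that crosses the 5′ end of *hsp-16.41*. That run lies in the relaxed pooled peak V:1805074-1805509, which held 1 pair TTCNNGAA, 1 pair GAANNTTC and 1 run of 3 units. None of these stood within 100 bp of the summit of that peak. The relaxed peak of *hsp-70* held 1 pair TTCNNGAA, 2 pairs GAANNTTC and 1 run of 3 units centred 54 bp from the summit. A run of 3 units thus occurred at 2 promoters with an IDR peak and at 2 promoters without one.

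Other short motifs were unevenly spread. The repeat GAGAGA was in the *F44E5.4*/*F44E5.5*, *hsp-1* and *dnj-13* promoter peaks, 3 of the 6, against 33.2% of IDR peaks and 14.2% of promoters. The GATA site TGATAA was in both *hsp-1* peaks, against 28.0% of IDR peaks and 21.2% of promoters. The windows also differed in base composition, which bears on how often short words occur. The G and C content was 49.8% at *F44E5.4*/*F44E5.5*, 45.8% at *dnj-13*, 39.3% at the *hsp-110* promoter and 38.3% at the *hsp-1* promoter, against a median of 42.8% over IDR peaks and 33.8% over promoters.

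**Figure D3:**
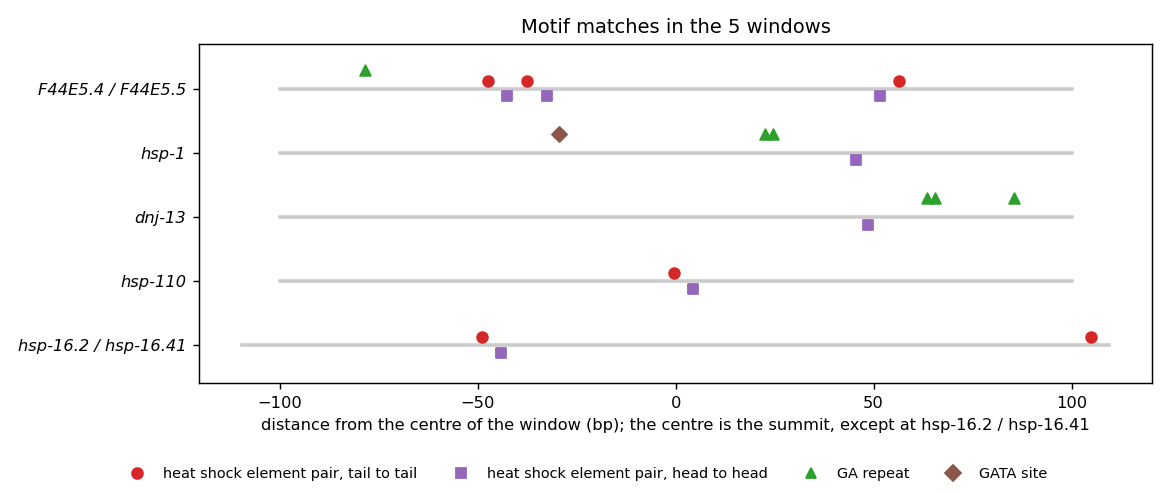
Matches of short motifs (symbols) in the 5 printed windows (grey lines), by distance from the window centre in bp, which is the summit except at hsp-16.2/hsp-16.41, where it is the middle of the 220 bp gap. Pairs lie at both sides of the summit at F44E5.4/F44E5.5, within 4.5 bp of it at hsp-110 and 45.5 and 48.5 bp from it at hsp-1 and dnj-13.

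Other genes of cytosolic protein folding, together with regulators of HSF-1, were read by the same window. Their lists held 47 names, of which 46 were found as protein-coding genes. An IDR summit lay at 5 of the 9 heat shock genes above and at 12 of these 46 (26.1%), against 10.4% of all protein-coding genes. The strongest signals at the 12 lay between 116 and 445 with a median of 223. The families differed in their counts. The CCT chaperonin, which folds actin and tubulin, had 4 of 8. The HSP90 gene with the cochaperones of HSP90 and HSP70 had 6 of 18. Regulators of HSF-1 had 1 of 6, and the other small heat shock proteins had 1 of 14. The last share, 7.14%, was near that of all protein-coding genes. Relaxed summits of all 3 lists were present at all 8 CCT genes, at 17 of the 18 HSP90 and cochaperone genes, at all 6 regulators and at 7 of the 14 small heat shock protein genes, against 49.2% of all protein-coding genes, so the last share was at the background. In that last list *hsp-16.1* and *hsp-16.11* share 1 pooled summit, and with *hsp-16.48* and *hsp-16.49* they lie within V:9087293-9090604. Their windows overlap, so they are not separate counts. Whether reads shared between these copies were dropped is not known. With so few genes in a list the counts are descriptions.

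Among the chaperonin genes, *cct-8* had a pooled signal of 445 (171 in replicate 2, 277 in replicate 3), 433 bp upstream, which is as high as *hsp-1*. *cct-5* had 4 IDR peaks among 12 pooled summits. The strongest had 381 (105 and 275 in replicates 2 and 3) in an intron 5099 bp into the gene. *cct-1* had 197 (81.1 and 115), 253 bp upstream, and *cct-7* had 116 (36.6 and 76.9), 229 bp upstream. The last was below the 2247th strongest peak of replicate 2.

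The HSP90 gene *hsp-90* had a signal of 369 (103 in replicate 2, 274 in replicate 3) in its own intron, 870 bp into the gene. The HSP90 activator gene *ahsa-1* had 172 (66.2 and 105), 230 bp upstream. The BAG-domain genes *bag-1* and *unc-23* encode nucleotide exchange factors of HSP70: *bag-1* had 249 (98.9 and 154), 170 bp upstream, and *unc-23* had 268 (120 and 145), 1 bp upstream. The J-domain genes were *dnj-19* with 269 (91.4 and 170), 386 bp upstream, and *dnj-12* with 140 (44.5 and 89.9), 87 bp upstream. All 6 peaks were above the 2247th strongest peak in both replicates, *dnj-12* only narrowly in replicate 2.

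In the lists of regulators and of other small heat shock proteins the strongest IDR peaks lay at gene ends. The FOXO gene *daf-16* had 5 IDR peaks among 37 pooled summits in its long window. The strongest had 175 (38.6 in replicate 2, 141 in replicate 3) in its 3′ UTR, 26073 bp into the gene. *hsp-12.3* had 149 (42.2 and 100), also in its 3′ UTR. Both fell below the 2247th strongest peak of replicate 2.

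A heat shock element pair lay within 100 bp of the summit in 4 of the 6 IDR peaks of the heat shock genes above, those upstream of a 5′ end. It lay near the strongest IDR summit in 9 of these 12 other genes, and in all 8 where that summit was upstream of the 5′ end. For comparison, it was in 373 of 2247 IDR peaks (16.6%) and in 4601 of 19973 promoters. A run of 3 units lay at *ahsa-1*, *bag-1* and *dnj-12*. The full CRE lay at none of the 12 and its core at 4. For contrast, among 4 chaperone genes of other compartments, the endoplasmic reticulum HSP70 gene *hsp-3* had an IDR peak with 432 (169 and 265 in replicates 2 and 3), 37 bp upstream, with 2 CRE cores and no pair, and the mitochondrial chaperonin gene *hsp-60* had one with 472 (177 and 295), 615 bp upstream, with a run of 3 units. *hsp-4* and *hsp-6* had none.

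**Figure D4:**
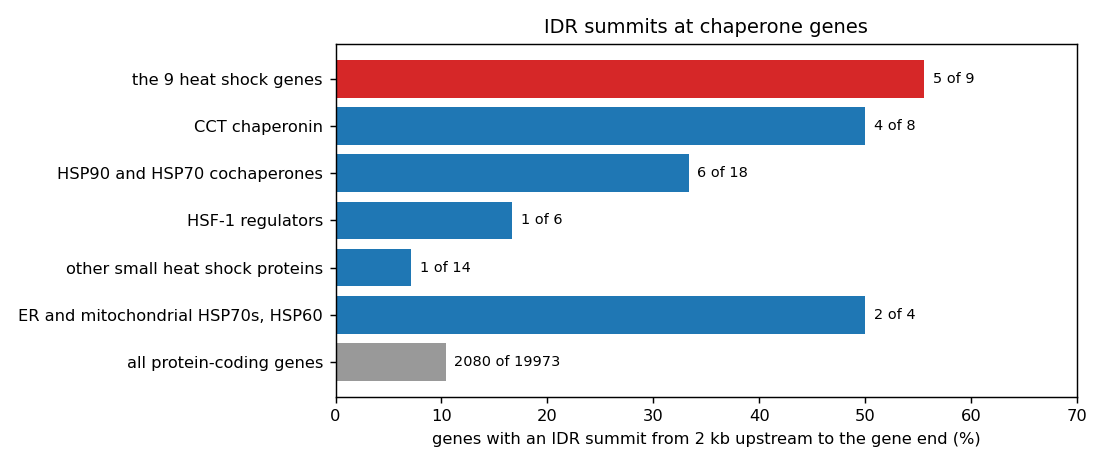
Percent of genes with an IDR summit from 2 kb upstream to the gene end (bars, with counts), for the 9 heat shock genes (red), 5 lists of other chaperone and regulator genes (blue) and all protein-coding genes (grey). The 9 heat shock genes have 5 of 9, the CCT chaperonin 4 of 8 and the other small heat shock proteins 1 of 14, against 10.4% of all protein-coding genes.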

How the data were processed

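The data are ATF-7 ChIP-seq peak lists of 2 biological replicates in build ce11. Per the labels and the listings deposited with the samples, the authors called relaxed peaks per replicate and on pooled reads as input to an IDR step. The deposited signal and −log10 q values per peak are the authors'. The signal was used to describe and rank peaks within a list, and −log10 q is at its ceiling in every IDR peak. Which aligner and peak caller were used, and at what IDR threshold, is not given in the sources used here. The control was not analysed here and the ce10 lists were not used here.

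Summits were joined to Ensembl release 115 (WBcel235), whose chromosomes contain all peaks, with Python 3.11.15 and pandas 2.3.3. Genes with a summit were counted from 2 kb upstream of the 5′ end to the gene end, beside the same count over 19973 protein-coding genes, and replicate summits were matched within 100 bp. Motifs were searched within 100 bp of the summit. Copies were found as shared 36-base and 50-base stretches and with BLAST+ 2.17.0, since the read length is not given in the sources used here. Windows and motif search were tested on simulated data. With 1 group no test was run.

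The 9 genes and the lists were chosen with earlier results of these data known. Named genes are these 9, every listed gene with an IDR summit, and genes divergent from one of the 9 or sharing its IDR summit. The listed genes *hsp-4*, *hsp-6*, *hsp-16.1*, *hsp-16.11*, *hsp-16.48* and *hsp-16.49* have no IDR summit and fall outside this rule. So do *uggt-2*, *R06C1.6*, the pseudogene and the non-coding RNA genes. All of these were named after their values or places were seen. *hsf-2* was not found as a protein-coding gene. *hsp-16.11* and *hsp-16.49* carry the names *hsp-16.1* and *hsp-16.48* in the annotation and were matched by RefSeq position. How alike these copies are was not measured, so whether reads shared between them were dropped is not known.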

Additional observations from a re-analysis of the deposited data

How the results depend on the processing

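The count of heat shock genes with an IDR summit stayed at 5 of 9, with the same 4 genes missing, under all 7 alternatives, while the share of all protein-coding genes lay between 5.49% and 11.7%. These were a 1 kb upstream limit, no gene body beyond 200 bp, any base of the peak, the stronger IDR peaks by the median signal, and the strongest peaks without replicate 2 or without replicate 3. A match among the strongest peaks of both replicates was added after seeing the data. The 12 of 46 other chaperone and regulator genes became 9 without the gene body and 15 with any base of the peak. The 9 genes with relaxed summits (49.2% of all protein-coding genes) became 8 without the gene body (31.7%), when *hsf-1* was lost. They became 7 with the stronger peaks of each list by its median (30.1%) or, added after seeing the data, with summits within 100 bp (33.7%), when *hsf-1* and *hsp-16.2* were lost. Within 50 bp of the summit 1 of the 6 IDR peaks held GAGAGA and 3 held a heat shock element pair, without that of *dnj-13*. Over whole peaks 2 held the CRE core. No paired analysis was possible because there is 1 group.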
